A study of Homo sapiens with 7 samples.

Results

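The genes described here are the alpha-like globin genes HBA2, HBA1, HBZ, HBM and HBQ1, which form 1 cluster on chromosome 16, and AHSP, which encodes the chaperone of free alpha-globin chains. They were taken by gene symbol from the deposited count table and make up 6 of its 32738 gene rows. All 6 were found and all 6 were abundant enough to test. RNA had been sequenced from HUDEP-2, an immortalised erythroid line made from human umbilical cord blood, in 7 libraries of 3 groups, to ask what follows when an enhancer of TMCC2 is silenced by CRISPR interference. In that method a nuclease-dead Cas9 carrying a repressor is led to DNA by a guide RNA.

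The guide 1 group (2 libraries) and the guide 2 group (2 libraries) carried guides annotated to the TMCC2 enhancer, and the non-targeting group (3 libraries) carried a guide with no intended target. Every group received lentivirus and then spent 72 h in erythroid differentiation medium containing 3 IU/ml erythropoietin, after growth in medium with stem cell factor, erythropoietin, dexamethasone and doxycycline. All libraries therefore come from a single transformed line, and nothing in the labels says that replicates were separate cultures, so the p-values below measure the spread between these libraries, which may be technical.

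Haemoglobin of the adult pairs alpha chains with beta-like chains, and a pair of nearly identical genes, HBA1 and HBA2, supplies the alpha chain. Free alpha chains are unstable and harm the red cell, and AHSP binds them until a beta chain is met. HBZ encodes the zeta chain of the embryo, which is largely silenced before birth, whereas the mu gene HBM and the theta gene HBQ1 are transcribed in erythroid cells without a known place in haemoglobin.

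The guides are shown because they define the 3 groups, and the HBM promoter because HBM was the member called in the most of the fits that left out non-targeting replicate 1. The promoter is the 250 bases before the RefSeq start of HBM, on the plus strand of GRCh38.p14 at chr16:165728-165977, and its capitals mark a GATAA motif and a CACCC motif read on the opposite strand. The guides have no capitals.
Guide 1: gtcgtgctgcaggtgaagtg
Guide 2: ccatccttcagagtaaacag
Non-targeting guide: atcgcgaggacccgttccgcc
HBM promoter: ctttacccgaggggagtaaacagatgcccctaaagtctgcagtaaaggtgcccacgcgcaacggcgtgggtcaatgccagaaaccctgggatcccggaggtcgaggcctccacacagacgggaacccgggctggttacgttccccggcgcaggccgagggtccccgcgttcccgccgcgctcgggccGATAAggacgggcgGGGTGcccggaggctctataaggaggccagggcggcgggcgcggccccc

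GATA1, the erythroid GATA factor, recognises GATA sequences, and KLF1, an activator of adult globin genes, recognises CACCC boxes. The letters searched on both strands were GATAA, the CACCC box, the CCAAT box and the TATAAA box. GATAA began 63 bases and the CACCC match 49 bases before the start, without overlap, and neither CCAAT nor TATAAA was in this window. Among 35116 RefSeq promoters of the same length, 20.4% held GATAA, 54.7% held CACCC, 32% held CCAAT and 10.7% held TATAAA. A motif match describes the sequence and is not a binding measurement. Promoter sequence was matched for 1 of the 6 genes, HBM.

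In GENCODE v29 on GRCh38 the 5 alpha-like genes lie on the plus strand in the order HBZ (chr16:152687-154503), HBM (chr16:153892-166768), HBA2 (chr16:172876-173710), HBA1 (chr16:176680-177522) and HBQ1 (chr16:180453-181181). AHSP lies on the same chromosome at chr16:31527864-31528803, far from the cluster. The deposited table holds no coordinates and was made on GRCh37, so these positions locate the genes and were not joined to the counts. Over all annotated transcripts, the exons of HBZ and HBM share 205 bases, which is 27.2% of the exonic bases of HBZ and 22.4% of those of HBM. The long HBM model that reaches into HBZ starts far upstream of the RefSeq start shown above, and the transcripts used for length and GC content share 0 of 706 windows of 50 bases along HBZ with HBM. Of the 527 windows of 50 bases along the HBA2 transcript, 431 (81.8%) also occur in the HBA1 transcript, and 0 occur in the HBZ, HBM or HBQ1 transcript. How reads common to both genes were counted is not given in the sources used here, so HBA1 and HBA2 are uncertain one by one. Their sum does not depend on how such reads were divided, but it would be too low if they were left out. The same limit holds for the shares, ratios and levels per kb below that use these counts. The 5 alpha-like transcripts are GC-rich, at 64.41% to 68.84%, and AHSP stands at 52.48%.

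Library totals ran from 9780800 to 11350113 counts. TMCC2, the gene whose enhancer was targeted, had 2327 and 2342 counts with guide 1 and 2454 and 2759 counts with guide 2, against 9425, 9316 and 8698 counts in the non-targeting libraries. All 9 erythroid markers were detected, with a summed level of 222604 to 222791 CPM (counts scaled to an equal library total) with guide 1, 214707 to 218328 CPM with guide 2 and 194070 to 217954 CPM in the non-targeting libraries. HBB made up 88% to 90.5% of that sum, and the 8 other markers summed to 21129 to 21315 CPM with guide 1, 21592 to 22354 CPM with guide 2 and 21885 to 23385 CPM in the non-targeting libraries. Non-targeting replicate 1 stood apart. Its deviation from the 7-library mean ran against transcript GC content with a Spearman rho of -0.68 across 9428 genes, while the other libraries lay between -0.31 and 0.42. At the GC content of HBA2 that trend amounts to -0.25 on the log2 scale in this library, and at that of AHSP to -0.10. Each result below that rests on this library is given with and without it.

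With all 7 libraries, no alpha-like gene and not AHSP passed the test in any comparison. In edgeR's quasi-likelihood test with Benjamini-Hochberg adjustment over all 10212 genes, 0 of 6 were called for both guides against non-targeting, where 0.0196% of all genes were called. The count was also 0 of 6 for guide 1 (0.0294% of all genes), for guide 2 (0.00979%) and for guide 2 against guide 1 (0%). At an unadjusted p under 0.05 there were 0, 0, 1 and 1 of the 6 in that order of comparisons, beside 4.19%, 4.78%, 2.75% and 2.86% of all genes, and DESeq2 called 0 of 6 in each. The gene with the unadjusted p under 0.05 was HBZ both times. Without non-targeting replicate 1, all 6 were negative with guide 2 and 4 of the 6 were called, where 1.27% of all genes were called. Those 4 were HBA2, HBA1, HBZ and HBM.

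**Figure D1:**
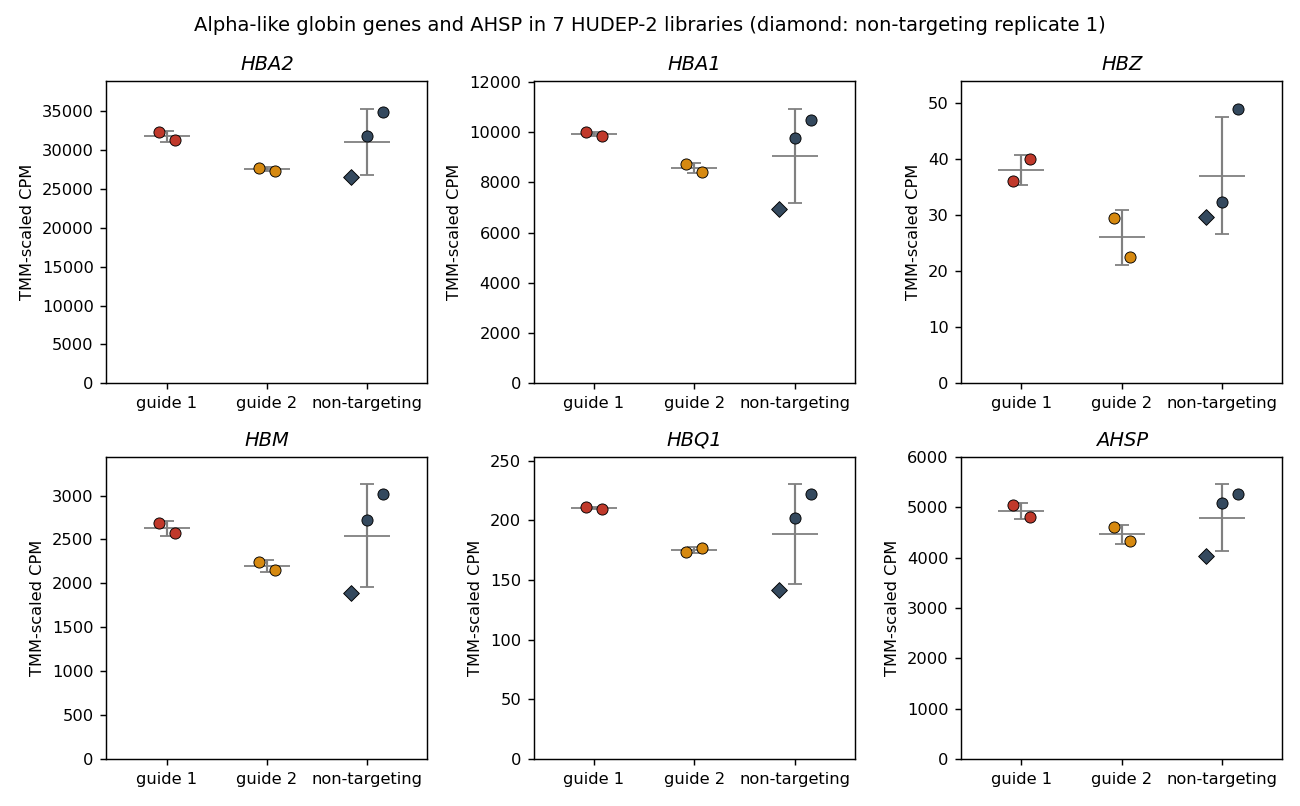
TMM-scaled CPM (vertical axes, from 0) of the 6 genes in the guide 1, guide 2 and non-targeting libraries. Points are libraries, horizontal lines are group means and error bars are SDs (n = 2, 2 and 3), and the diamond is non-targeting replicate 1. The guide 2 libraries lie below the guide 1 libraries in all 6 panels, and the non-targeting libraries spread widely, from 26539 to 34966 CPM for HBA2.

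HBA2 and HBA1 carried most of the alpha-like RNA. Levels are given as TMM-scaled CPM unless stated otherwise. HBA2 stood at 32319 and 31317 CPM with guide 1, at 27696 and 27348 CPM with guide 2, and at 26539, 31805 and 34966 CPM in the non-targeting libraries. The guide 2 libraries were lower than both guide 1 libraries and lay inside the non-targeting range, whose lowest value was replicate 1. The log2 fold change was 0.03 (SE 0.12) with guide 1 and -0.18 (SE 0.12) with guide 2. For both guides together it was -0.07 (SE 0.10, 95% interval -0.28 to 0.13), so a loss of the size seen for TMCC2, -1.89 (SE 0.09), lies outside the interval.

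HBA1 stood at 9996 and 9860 CPM with guide 1, at 8714 and 8419 CPM with guide 2, and at 6948, 9764 and 10495 CPM in the non-targeting libraries. Again the lowest of all 7 libraries was non-targeting replicate 1, and the groups overlapped in both comparisons with non-targeting. The log2 fold change was 0.13 (SE 0.14) with guide 1 and -0.08 (SE 0.14) with guide 2. For both guides together it was 0.02 (95% interval -0.23 to 0.28).

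HBZ, the embryonic zeta-globin gene, was the scarcest of the 6, with 239 to 455 counts a library. It stood at 36.15 and 39.98 CPM with guide 1, at 29.55 and 22.56 CPM with guide 2, and at 29.68, 32.42 and 49.02 CPM in the non-targeting libraries. Both guide 2 libraries were below every other library, although guide 2 replicate 1 lay just under non-targeting replicate 1. HBZ was the 1 gene of the 6 whose guide 2 and non-targeting libraries did not overlap, and 6.86% of all tested genes did not overlap in that direction. The log2 fold change with guide 2 was -0.50 (SE 0.20, 95% interval -0.94 to -0.07), with an unadjusted p of 0.0263 and an adjusted p of 0.999 in edgeR. With guide 1 it was 0.04 (SE 0.20). Leaving out 1 library moved the guide 2 value widely, to -0.25 (SE 0.18) without non-targeting replicate 3, to -0.32 without guide 2 replicate 2 and to -0.71 without guide 2 replicate 1. Whether any reads were shared with the long HBM model depends on the annotation used for counting, which is not given in the sources used here.

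HBM varied by 23.1% of its mean in the non-targeting group, more than the other alpha-like genes except HBZ at 28.3%. It stood at 2691 and 2570 CPM with guide 1, at 2245 and 2152 CPM with guide 2, and at 1888, 2723 and 3019 CPM in the non-targeting libraries. The guide 2 libraries were below 2 of the 3 non-targeting libraries and above replicate 1. The log2 fold change was 0.05 (SE 0.15) with guide 1, -0.21 (SE 0.15) with guide 2 and -0.08 (SE 0.13) for both guides.

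HBQ1, the theta gene at the far end of the cluster, stood at 210.8 and 209.7 CPM with guide 1, at 173.4 and 176.9 CPM with guide 2, and at 141.9, 202.1 and 221.9 CPM in the non-targeting libraries. Its 2 libraries within each guide were close, with SDs of 0.761 CPM with guide 1 and 2.5 CPM with guide 2, against 41.7 CPM in the non-targeting group. The log2 fold change was 0.16 (SE 0.15) with guide 1, -0.11 (SE 0.15) with guide 2 and 0.02 (SE 0.13) for both guides.

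AHSP stood at 5038 and 4817 CPM with guide 1, at 4604 and 4336 CPM with guide 2, and at 4038, 5085 and 5268 CPM in the non-targeting libraries. The order of its 7 libraries was the same as that of HBM, from non-targeting replicate 3 down to non-targeting replicate 1. The log2 fold change was 0.04 (SE 0.12) with guide 1, -0.10 (SE 0.12) with guide 2 and -0.03 (SE 0.10, 95% interval -0.24 to 0.18) for both guides. In bulk RNA a lower level may come from fewer cells that express a gene or from less RNA per cell, and these cannot be told apart.

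Levels were compared between genes per length, as CPM per kb of transcript. Over all 7 libraries HBA2 had 52577 ± 5434, HBA1 15894 ± 2120, AHSP 9047 ± 841, HBM 4881 ± 772, HBQ1 356 ± 52.4 and HBZ 45.3 ± 11.3 CPM per kb (SD, n = 7). Each step in that order is larger than the SDs of its neighbours, with the division between HBA2 and HBA1 subject to the shared sequence named above. AHSP thus had more RNA per kb than any alpha-like gene other than HBA2 and HBA1.

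As a set, the 6 genes differed between the guides in sign with all 7 libraries. With guide 1, 6 of 6 fold changes were positive, with a median of 0.05 beside -0.01 over all genes. With guide 2, 6 of 6 were negative, with a median of -0.14 beside -0.02 over all genes. Both comparisons share the 3 non-targeting libraries. Guide 2 against guide 1, which does not use those libraries for its means, gave -0.21 for HBA2, -0.21 for HBA1, -0.55 for HBZ, -0.26 for HBM, -0.26 for HBQ1 and -0.14 for AHSP on the log2 scale, with a median of -0.24 beside 0.00 over all genes. The libraries of the guides did not overlap for 6 of 6 genes, each lower with guide 2, and 22.2% of all genes did not overlap in that direction. The 6 genes varied together, with Pearson's r from 0.672 to 0.992 between pairs, so these are not 6 separate results. None of these differences passed adjustment (adjusted p = 0.983 for each, edgeR). The guides also differed in the GC trend, with a Spearman rho of 0.41 and 0.27 for guide 1 and 0.08 and -0.31 for guide 2. With that trend removed from each library, guide 2 against guide 1 gave -0.13 for HBA2, -0.13 for HBA1 and -0.46 for HBZ. HBM then stood at -0.18, HBQ1 at -0.22 and AHSP at -0.09. The signs against non-targeting depended on replicate 1: without it all 6 guide 1 values were negative, from -0.01 for HBQ1 to -0.13 for HBM, and none was called, beside 0.584% of all genes.

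Without non-targeting replicate 1 the standard errors were smaller, for HBA2 with guide 2 at 0.05 against 0.12 with all libraries. With guide 2, HBM then fell by 0.38 on the log2 scale (SE 0.06, adjusted p = 0.000366, edgeR). HBA2 fell by 0.28 (adjusted p = 0.00342, edgeR), HBZ fell by 0.63 (SE 0.14, adjusted p = 0.0176, edgeR) and HBA1 fell by 0.24 (adjusted p = 0.0181, edgeR). HBQ1 at -0.27 (adjusted p = 0.0528) and AHSP at -0.21 (adjusted p = 0.0512) missed the threshold in the same fit. These 4 of 6 stand beside 1.27% of all 10107 genes then tested, or 0.890% called lower. For both guides HBM was called at -0.26 (adjusted p = 0.00971), where 0.524% of all genes were called, and HBA2 at -0.17 was not (adjusted p = 0.0601). HBM was also the 1 member called for guide 2 against guide 1, at -0.26 (adjusted p = 0.0473), where 0.317% of all genes were called. Without non-targeting replicate 3 instead, the guide 2 values were -0.07 for HBM, -0.08 for HBA2, -0.25 for HBZ and 0.035 for HBA1, and 0 of 6 were called, where 0.00984% of all genes were called. Over all alternatives run, the adjusted p for guide 2 against non-targeting ran from 0.000366 to 1 for HBM, from 0.00342 to 1 for HBA2, from 0.0176 to 1 for HBZ and from 0.0181 to 1 for HBA1.

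**Figure D2:**
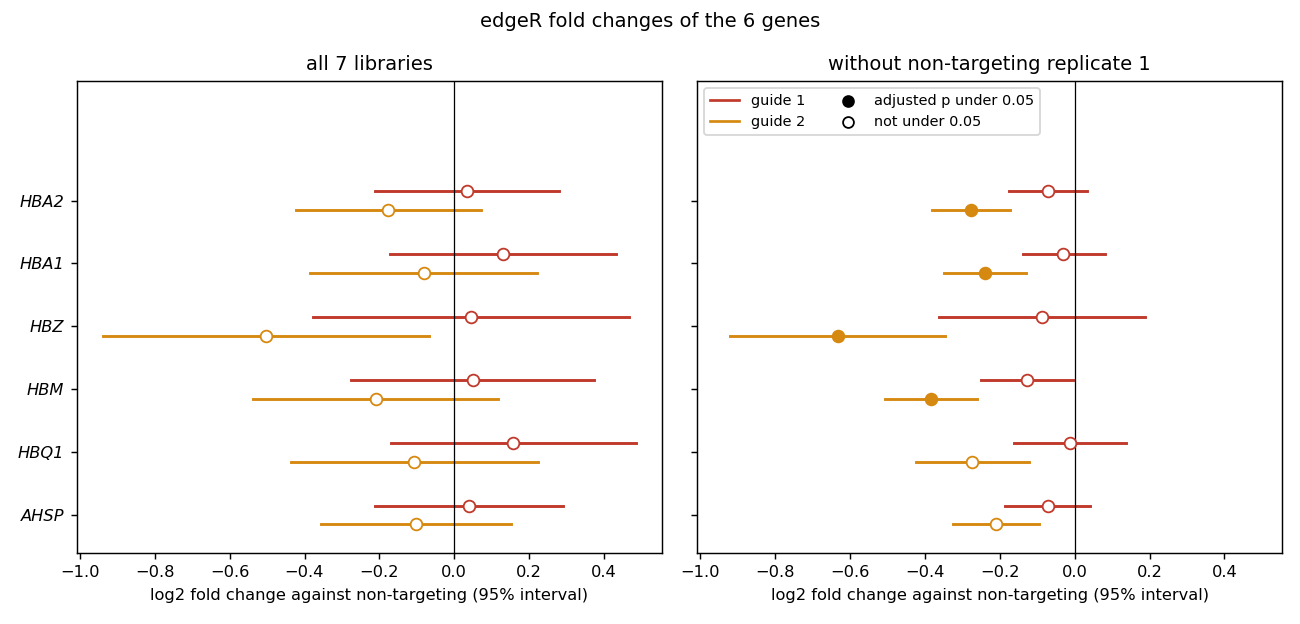
Log2 fold changes of the 6 genes against non-targeting (horizontal axes) with guide 1 and guide 2, with 95% intervals from edgeR, using all 7 libraries (left) and without non-targeting replicate 1 (right). Filled points passed an adjusted p under 0.05: none on the left, and HBA2, HBA1, HBZ and HBM with guide 2 on the right.

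All 6 genes were low in non-targeting replicate 1, the library with the strongest negative GC trend. They also lay below their 7-library means in guide 2 replicate 1 (Spearman rho 0.08) and in guide 2 replicate 2 (-0.31). With the trend subtracted, non-targeting replicate 1 stood at 0.062 for HBA2 and 0.082 for HBZ. The others stayed negative there, with HBA1 at -0.141, HBM at -0.127, HBQ1 at -0.184 and AHSP at -0.128. All 6 stayed negative in both guide 2 libraries. The fit was also repeated with a smooth trend on transcript GC content removed from each library. With all 7 libraries, 0 of 6 were called after that correction for both guides (0.0881% of all genes), guide 1 (0.166%), guide 2 (0.0294%) or guide 2 against guide 1 (0.0196%). HBZ with guide 2 stood at -0.48 (SE 0.15, 95% interval -0.80 to -0.17, adjusted p = 0.473, edgeR). The SE of HBA2 for both guides was 0.07 with the correction and 0.10 without it. With the correction and without non-targeting replicate 1 together, an alternative chosen after the data were seen, HBM with guide 2 was the 1 member called, at -0.26 (SE 0.06, adjusted p = 0.0378, edgeR), where 0.277% of all genes were called. HBA2 stood at -0.16 there (adjusted p = 0.232, edgeR). In the same fit 0 of 6 were called for both guides (0.396% of all genes), guide 1 (0.742%) and guide 2 against guide 1 (0.257%). The part of GC content in the guide 2 differences was tested no further.

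**Figure D3:**
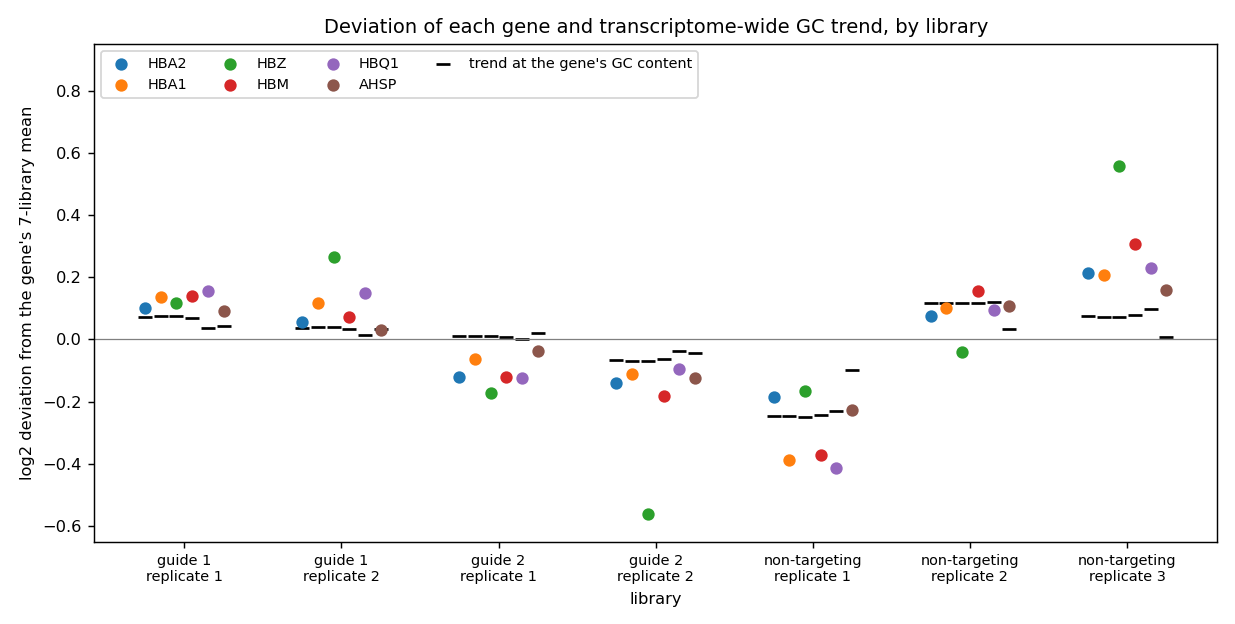
Deviation of each of the 6 genes from its own 7-library mean (vertical axis, log2 TMM-scaled CPM) in each library (horizontal axis). Short black lines give the transcriptome-wide GC trend of that library at the gene's GC content. In non-targeting replicate 1 all 6 genes lie below 0, from -0.17 for HBZ to -0.41 for HBQ1, with the trend at -0.25 for HBA2, and in non-targeting replicate 3 all 6 lie above 0.

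The alpha-like genes together took 43962 and 43327 CPM of total counts with guide 1, 39646 and 39216 CPM with guide 2, and 37828, 43559 and 46267 CPM in the non-targeting libraries. The guide 2 libraries were below the guide 1 libraries and inside the non-targeting range. The mean log2 difference was -0.03 for both guides (exact permutation p = 0.686, two-sided, where 0.0571 is the smallest that 4 against 3 libraries allow). For guide 2 alone it was -0.10 (exact permutation p = 0.6, smallest possible 0.2). Leaving out non-targeting replicate 1, these differences were -0.11 for both guides (exact permutation p = 0.267) and -0.19 for guide 2 (exact permutation p = 0.333). Shares, sums and ratios were tested 40 times in all, and the smallest adjusted p over that family was 0.667.

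Within the alpha-like counts, HBA2 took 71.2% to 74.7%, HBA1 19.5% to 22.4%, HBM 5.31% to 6.19%, HBQ1 0.399% to 0.477% and HBZ 0.0592% to 0.101% over the 7 libraries. The share of HBA1 was 22.1% and 22.4% with guide 1 and 22.4% and 22.1% with guide 2, against 19.5%, 21.9% and 21.5% in the non-targeting libraries. It was higher in all 4 guide libraries than in all 3 non-targeting ones, and 3.71% of all genes were higher without overlap when set against the alpha-like sum. The difference in means was 1.25 percentage points (exact permutation p = 0.0571, the smallest possible, adjusted p = 0.667), and it was 0.525 points without non-targeting replicate 1. The share of HBZ was lowest in guide 2 replicate 2, at 0.0592% (exact Clopper-Pearson 95% interval 0.0519% to 0.0672%, counting error only), against 0.0728% (0.0655% to 0.0807%) in the lowest non-targeting library. Guide 2 replicate 1, at 0.076% (0.0679% to 0.0849%), lay inside the non-targeting range.

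Because no scaling of libraries can alter a ratio within a library, ratios between members and partners were compared as well. A GC trend does not cancel between transcripts of unlike GC content, and the ratios were not corrected for it. In non-targeting replicate 1 that trend was -0.246 at HBA2 and -0.098 at AHSP on the log2 scale. The alpha-like to beta-like ratio of counts (HBB, HBD, HBG1, HBG2 and HBE1 in the denominator) was 0.196 and 0.193 with guide 1, 0.183 and 0.184 with guide 2, and 0.197, 0.2 and 0.208 in the non-targeting libraries. It was lower in all 4 guide libraries, and 3.13% of all genes were lower without overlap when set against the beta-like sum. Guide 1 replicate 1 lay just under non-targeting replicate 1, at -2.348 against -2.347 on the log2 scale, so the lack of overlap rests on a near tie. The log2 difference was -0.09 for both guides (exact permutation p = 0.0571, the smallest possible, adjusted p = 0.667) and -0.14 for guide 2 alone (exact permutation p = 0.2, smallest possible). Leaving out any 1 library gave values from -0.11 to -0.07 for both guides. The sign could not change there, because the groups did not overlap.

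The HBA2 to HBA1 ratio was 3.23 and 3.18 with guide 1, 3.18 and 3.25 with guide 2, and 3.82, 3.26 and 3.33 in the non-targeting libraries. It was lower in all 4 guide libraries, where 1.31% of all genes were lower without overlap when set against HBA1, and its log2 difference of -0.11 (exact permutation p = 0.0571, adjusted p = 0.667) was -0.04 without non-targeting replicate 1. This ratio rests on the counting of shared reads and is a description of these counts.

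AHSP stood at 0.119 and 0.117 counts per HBA1 plus HBA2 count with guide 1, 0.126 and 0.121 with guide 2, and 0.121, 0.122 and 0.116 in the non-targeting libraries. The groups overlapped, with a log2 difference of 0.02 for both guides (exact permutation p = 0.686). HBZ stood at 0.000854 and 0.000971 counts per HBA1 plus HBA2 count with guide 1, 0.000812 and 0.000631 with guide 2, and 0.000886, 0.00078 and 0.00108 in the non-targeting libraries. Guide 2 replicate 1 lay inside the non-targeting range, and the log2 difference for guide 2 was -0.34 (exact permutation p = 0.4, smallest possible 0.2).

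**Figure D4:**
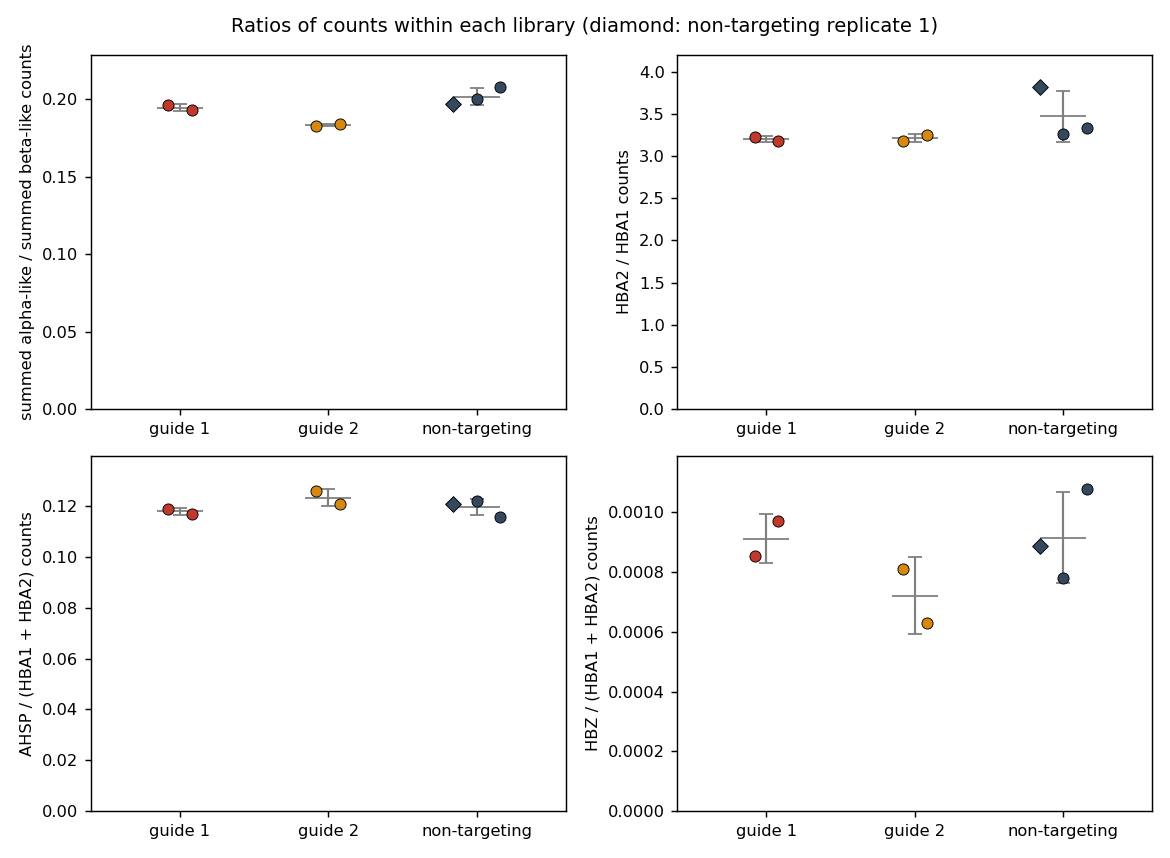
Ratios of counts within each library (vertical axes, from 0) for the guide 1, guide 2 and non-targeting groups; points are libraries, lines are means, error bars are SDs and the diamond is non-targeting replicate 1. The alpha-like to beta-like ratio is 0.183 to 0.196 with a guide and 0.197 to 0.208 without a targeting guide, and the AHSP ratio overlaps between groups.

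The members varied together over the 7 libraries. Pearson's r of log2 levels between pairs ran from 0.672 (HBA1 with HBZ) to 0.992 (HBA1 with HBQ1), as a description over 7 libraries that share depth, group and the GC trend. Among genes averaging at least 50 CPM, those most like HBA1 plus HBA2 were HBM (r = 0.992), BSG, which encodes basigin (0.99), and TUBB1, a beta-tubulin gene of platelets (0.989), where the 95th percentile of 2343 genes was 0.944. Those most like AHSP were MRPL28, a mitochondrial ribosomal protein gene (0.995), CAPN1, a calpain gene (0.994), and NR1H2, a nuclear receptor gene (0.992). The 95th percentile of 2344 genes was 0.966 there. AHSP exceeded it with HBM (0.989) but not with HBA1 (0.965), HBA2 (0.946), HBQ1 (0.943) or HBZ (0.73). HBZ was most like ABCF2 (0.954), RPL27 (0.946) and ARID1A (0.923), with a 95th percentile of 0.778 over 2345 genes. Among the members, HBZ exceeded that percentile with HBA2 (0.854) but not with HBM (0.767), AHSP (0.73), HBQ1 (0.676) or HBA1 (0.672).

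Among the beta-like genes, the partners of the alpha chains, 0 of 5 were called for both guides with all 7 libraries in edgeR and 0 in DESeq2, and 2 had an unadjusted p under 0.05, beside 4.19% of all genes. HBB, the adult beta gene, stood at 197946 ± 9664 CPM with a targeting guide (SD, n = 4) and 188171 ± 24461 CPM in non-targeting libraries (SD, n = 3), a log2 difference of 0.07 (SE 0.10), and the delta gene HBD at 0.06 (SE 0.10). The fetal genes HBG1 at -0.27 (SE 0.10) and HBG2 at -0.24 (SE 0.10) and the embryonic gene HBE1 at -0.31 (SE 0.16) were negative. HBG1 and HBG2 are near-identical copies and share reads. The list median was -0.24, beside -0.05 for the 6 members. Without non-targeting replicate 1, 3 of the 5 were called for both guides together in edgeR, where 0.524% of all genes were called: HBG2 fell by 0.36 (adjusted p = 2.45e-05), HBG1 fell by 0.31 (adjusted p = 0.0151) and HBE1 fell by 0.51 (adjusted p = 0.00197). HBG2 and HBE1 were also called with each guide alone. HBG1 stood at -0.06 with guide 1 (adjusted p = 0.961, edgeR), whereas it fell by 0.555 with guide 2 (adjusted p = 2.69e-05, edgeR), and guide 2 against guide 1 was called at -0.50 (adjusted p = 0.000331, edgeR).

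Of 11 other genes of the alpha-globin region, 10 were tested, with RGS11 below the filter. Of these 0 were called in edgeR or in DESeq2 and 0 had an unadjusted p under 0.05 for both guides. Their median was 0.06, beside -0.01 over all genes. AXIN1, a Wnt pathway scaffold, stood at 0.34 (SE 0.19), the RNA polymerase III subunit gene POLR3K at 0.18 (SE 0.18), the DNA glycosylase gene MPG at 0.16 (SE 0.13) and the splicing factor gene LUC7L at 0.10 (SE 0.12).

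Of 14 factors known to act on these genes, 0 were called in edgeR or DESeq2, 1 had an unadjusted p under 0.05, and the median was -0.03. That one was KLF1, at 466 ± 39.3 CPM with a targeting guide (SD, n = 4) and 620 ± 116 CPM in non-targeting libraries (SD, n = 3), a log2 difference of -0.41 (SE 0.12, unadjusted p = 0.00297, adjusted p = 0.998, edgeR). The chromatin remodeller gene ATRX, whose loss lowers alpha-globin, stood at -0.20 (SE 0.13), its partner DAXX at 0.10 (SE 0.11) and POU2F1, a factor of the POU family, at -0.12 (SE 0.17). Without non-targeting replicate 1, KLF1 was the 1 factor called for both guides together, where it fell by 0.54 (SE 0.06, adjusted p = 1.68e-06, edgeR). It was also called with guide 1, at -0.62 (adjusted p = 2.16e-06, edgeR), and with guide 2, at -0.46 (adjusted p = 0.000518, edgeR). NFE2, an erythroid factor gene, was called in that fit with guide 2, where it fell by 0.23 (SE 0.06, adjusted p = 0.0482, edgeR), and stood at -0.11 with guide 1 (adjusted p = 0.743, edgeR).

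Genes that handle free alpha chains or sense haem gave 0 of 9 calls in edgeR and DESeq2, 1 unadjusted p under 0.05 and a median of -0.08. The heat shock genes HSPA1A, at -0.29 (SE 0.13), and HSPA1B, at -0.21 (SE 0.11), are near-identical copies and were lower in all 4 guide libraries, where 2.37% of all genes were lower without overlap. The autophagy kinase gene ULK1, at 0.17 (SE 0.10), was higher in all 4 guide libraries, where 3.03% of all genes were higher without overlap, and the oxidative stress factor gene NFE2L2 stood at -0.11 (SE 0.10). Of 8 haem synthesis genes 0 were called in edgeR or DESeq2 and 0 had an unadjusted p under 0.05, with a median of -0.01. CPOX stood at -0.20 (SE 0.12), PPOX at 0.12 (SE 0.11) and FECH at -0.06 (SE 0.08). Without non-targeting replicate 1, 0 genes of the region, free chain or haem lists were called for both guides together or for guide 1 in edgeR. With guide 2, PRDX2, the gene of an abundant red cell peroxidase, was the 1 gene of these lists called in that fit, where it fell by 0.275 (SE 0.06, adjusted p = 0.0116, edgeR), against -0.095 with guide 1 (adjusted p = 0.806, edgeR). NFE2 and PRDX2 were named after their values were seen.

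Markers of other cells were scarce, apart from those of megakaryocytes and mast cells. Neutrophil and monocyte markers summed to 2.85 to 3.16 CPM with guide 1, 1.62 to 4.56 CPM with guide 2 and 2.54 to 3 CPM in the non-targeting libraries, with MPO and S100A8 at 0 throughout. Lymphocyte markers summed to 0.46 to 0.765 CPM with guide 1, 0.68 to 0.859 CPM with guide 2 and 0.282 to 1.12 CPM in the non-targeting libraries, with 5 of 7 at 0. Megakaryocyte and platelet markers summed to 204 to 213 CPM with guide 1, 183 to 198 CPM with guide 2 and 176 to 208 CPM in the non-targeting libraries, with PF4, PPBP and VWF at 0. Mast cell and basophil markers summed to 18.9 to 20.8 CPM with guide 1, 19.1 to 19.2 CPM with guide 2 and 19.2 to 23.3 CPM in the non-targeting libraries, with MS4A2, HDC and CLC at 0. Fibroblast and packaging line markers summed to 1.72 to 2.12 CPM with guide 1, 1.72 to 2.43 CPM with guide 2 and 1.41 to 2.82 CPM in the non-targeting libraries, with COL1A2 and DCN at 0.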

How the data were processed

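The data are Smart-seq2 libraries with Nextera indexing, per the labels' protocols, from 7 HUDEP-2 samples. The deposited table holds raw, unscaled read counts, with genes in rows by symbol and 1 column for each library; 13966 of 32738 genes were at 0 throughout. STAR is named as the aligner and GRCh37 (hg19) as the build, per the submitters' processing notes, without versions; how reads were counted (program, annotation, strand, multi-mapping reads) is not given in the sources used here. The protocol marks no strand and uses no molecular identifiers, so antisense reads are not separated, PCR copies count as reads, and intervals on shares cover counting error only.

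The deposited counts entered edgeR 4.0.16 (R 4.3.3): filterByExpr (minimum count 10), TMM scaling, and a quasi-likelihood model of 3 groups over all 7 libraries (4 residual degrees of freedom, biological coefficient of variation 12.45%), with Benjamini-Hochberg adjustment over 10212 genes at a threshold of 0.05. DESeq2 1.42.0 was an alternative. Shares and ratios were tested by exact permutation in scipy 1.17.1 and adjusted over 40 tests. The GC correction subtracts a spline with 4 degrees of freedom on transcript GC content per library, with GENCODE v29 values for 92.3% of tested genes. Code was tested on simulated data. Alternatives were other scalings, no filter, the replicate number as a block, fits on only the groups compared, and leaving out each library. The members, gene lists and tests were chosen with earlier results of these data known. All 6 members were named, with all beta-like genes and up to 4 genes of smallest unadjusted p per other list, provided that 1 group averaged 5 CPM or more. Of the genes so taken, 1 is not reported here. The likeness of 2 genes is Pearson's r of log2 TMM-scaled CPM with a prior count of 1.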

Additional observations from a re-analysis of the deposited data

How the results depend on the processing

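Of 402 alternative values for the 6 genes in the 4 comparisons, 359 kept their direction and their side of the threshold, 36 reversed and 7 passed it. Guide 2 against guide 1 kept its negative sign for all 6 genes under every alternative run. Both guide 2 libraries lay below both guide 1 libraries for all 6 genes, so leaving out 1 library was no test of that sign. With the GC correction, where the sign was not fixed in that way, the values ran from -0.463 for HBZ to -0.091 for AHSP. No reversed value was itself called, and the causes of the changes were not tested. Depth limits HBZ most, with 239 to 455 counts a library, and 2 libraries a guide limit every exact test.

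Leaving out 1 library at a time moved the fold changes for both guides from -0.17 to 0.02 for HBA2, -0.14 to 0.14 for HBA1, -0.36 to 0.02 for HBZ, -0.26 to 0.06 for HBM, -0.14 to 0.16 for HBQ1 and -0.14 to 0.041 for AHSP. For guide 1 they ran from -0.07 to 0.12 for HBA2, -0.03 to 0.25 for HBA1, -0.087 to 0.29 for HBZ, -0.13 to 0.19 for HBM, -0.012 to 0.29 for HBQ1 and -0.072 to 0.11 for AHSP. For guide 2 they ran from -0.28 to -0.084 for HBA2, -0.24 to 0.035 for HBA1, -0.71 to -0.25 for HBZ, -0.38 to -0.069 for HBM, -0.27 to 0.026 for HBQ1 and -0.21 to -0.03 for AHSP. The lowest values came without non-targeting replicate 1, except for HBZ with guide 2 (without guide 2 replicate 1), and the highest without non-targeting replicate 3. Where an arm was left with 1 library, that library was assumed to vary like the other groups.

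The count of called genes ran from 1 to 53 for both guides, 1 to 59 for guide 1, 1 to 128 for guide 2 and 0 to 32 for guide 2 against guide 1 as single libraries were left out. Counts in the same order of comparisons were 8, 19, 4 and 2 with no filter on low counts, 9, 17, 3 and 2 with the GC correction, and 4, 5, 3 and 1 with DESeq2. With the GC correction and without non-targeting replicate 1 they were 40, 75, 28 and 26. Guide 2 against guide 1 gave 19 calls when only those libraries were fitted.

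Whether the replicate numbers pair the samples could not be decided. Correlations of same-numbered libraries, after each group's mean was removed, ran from -0.18 to 0.03. With 2 libraries a guide, the deviations within a guide mirror each other, so these values neither show nor exclude pairing. With the replicate number as a block, 1 gene was called for both guides and 1 for guide 2 against guide 1. In that block fit, both guides gave 0.024 for HBA2, 0.019 for HBZ, 0.074 for HBM and 0.045 for AHSP, and guide 2 gave 0.049 for HBA1, 0.04 for HBQ1, -0.081 for HBA2, -0.255 for HBZ, -0.055 for HBM and -0.025 for AHSP. Block and GC correction together gave 7, 9, 2 and 1 calls, 0.008 for HBM and 0.002 for AHSP with both guides, and 0.02 for HBA1 and 0.011 for HBQ1 with guide 2. The difference within replicate numbers, a pairing with no test, was 0.0313 for the summed alpha-like level, 0.0886 points for the HBM share and -0.00678 for the AHSP ratio with both guides, and 0.00722 points for the HBZ share with guide 1. Non-targeting replicate 3 has no partner in either guide, so this difference is the same as leaving that library out and is not a separate check.

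The GC correction reversed the guide 1 values of HBA2 (-0.031), HBZ (-0.022) and AHSP (-0.013). Without non-targeting replicate 1 as well, HBA1 stood at -0.056 and HBQ1 at -0.039 for both guides, and HBA2 at -0.027, HBZ at -0.051, HBM at -0.08 and AHSP at -0.088 for guide 1.

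Of 282 alternative values for shares, sums and ratios, 22 reversed. Leaving out 1 library, the summed alpha-like level ran from -0.11 to 0.03 for both guides and from -0.0407 to 0.10 for guide 1. The HBM share ran from -0.352 to 0.0886 points for both guides and from -0.261 to 0.18 points for guide 1, and the HBZ share with guide 1 from -0.00664 to 0.00722 points. The AHSP ratio with both guides ran from -0.00678 to 0.0323 and the HBZ ratio with guide 1 from -0.10 to 0.13. Guide 2 against guide 1 ran from -0.0238 to 0.446 points for the HBA2 share, -0.164 to 0.174 points for the HBA1 share and -0.0117 to 0.0196 for the HBA2 to HBA1 ratio.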
